A study of Rattus norvegicus with 14 samples.

Results

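Collagens, other matrix genes and genes of hepatic stellate cells were followed in the livers of rats fed a rosemary extract. The members were every measured gene with a collagen chain symbol (Col, a number, a and a number) and 17 named stellate cell, contractile and matrix genes. In all 41 of 14506 genes belonged to the set, 25 collagen genes and 16 of the 17 named genes; Ecm1 was not analysed here. Each gene was read from its brightest probe, by the mean over 14 arrays, among probes annotated with 1 gene symbol. Collagen chains without such a probe, among them Col4a2, Col6a1 and Col6a2, are not covered. The animals were lean female Zucker rats of genotype fa/+, heterozygous for fa, a mutated leptin receptor allele, and were about 15 weeks old according to the series title. The extract group (7 rats) received a standard diet with rosemary extract at 0.05% by weight for 64 days, and the extract contained 40% carnosic acid, a phenolic diterpene. The control group (7 rats) received the standard diet without extract for 64 days. One array was hybridised per rat, so replicates are animals. The comparison asks which transcripts of the matrix and of its cells differed in liver with the extract.

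Hepatic stellate cells lie between hepatocytes and the sinusoidal endothelium, where in the healthy liver they store vitamin A. They are pericytes of the sinusoid and carry receptors for platelet-derived growth factor (PDGF) on their surface. In injured liver they turn into contractile cells that make fibrillar collagen, a change driven by PDGF and by transforming growth factor beta. Collagens are trimers of chains with a repeating glycine pattern: fibrillar types give tissue its strength, type IV forms the sheet of basement membranes, and fibril-associated and transmembrane types attach to fibrils or cells.

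The fixed stellate cell markers Pdgfrb, Des and Col1a1 were all detected above the median probe of the array, which stood at 5.10 on the log2 scale in extract livers and 5.11 in control livers. Whole liver is mostly hepatocyte RNA, and in such bulk samples fewer cells of a type and less RNA per cell cannot be told apart. Values are log2 RMA values, an array intensity scale on which a difference of 1 is a doubling, and levels of different genes are not set against each other. RMA compresses folds near background: 7 of the 25 collagens and 3 of the 16 other members lay below the median probe in both groups. Array medians over all probes ran between 5.02 and 5.15, pairs of arrays correlated between 0.983 and 0.996, and over all genes the log2 fold had a median standard error of 0.087. Extract rat 4 and control rat 1 had the lowest array weights (0.463 and 0.410, where 1 is typical), which measure how closely an array follows the fit.

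Both PDGF receptor genes of stellate cells were called lower with the extract, though neither call was stable, and no collagen passed the test. In limma's moderated test over all genes, 2 of the 41 members passed a Benjamini-Hochberg adjusted p of 0.05, both lower: Pdgfra and Pdgfrb. Over all genes 1.15% were called lower and 2% higher, and 2 calls are too few to set the members apart from that. Without extract rat 4 and control rat 1 together, 1 member passed. After median centring, with every probe in the fit or with separate variances by group and gene, 0 passed. Leaving out 1 rat gave 0 to 2. None of the members was called higher. At an unadjusted p under 0.05, 5 members were lower and 0 higher, against 7.4% of all genes lower and 7.45% higher. A negative log2 fold was found in 22 of the 41 members, against 50.3% of all genes. The median log2 fold was -0.02 over the members and -0.00 over all genes. Over the members left by either of 2 filters on dim genes it was -0.16. Of the collagens, these filters kept only Col1a1, Col1a2, Col3a1 and Col14a1. Without a filter, the 16 members that are not collagens had a median of -0.17.

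**Figure D1:**
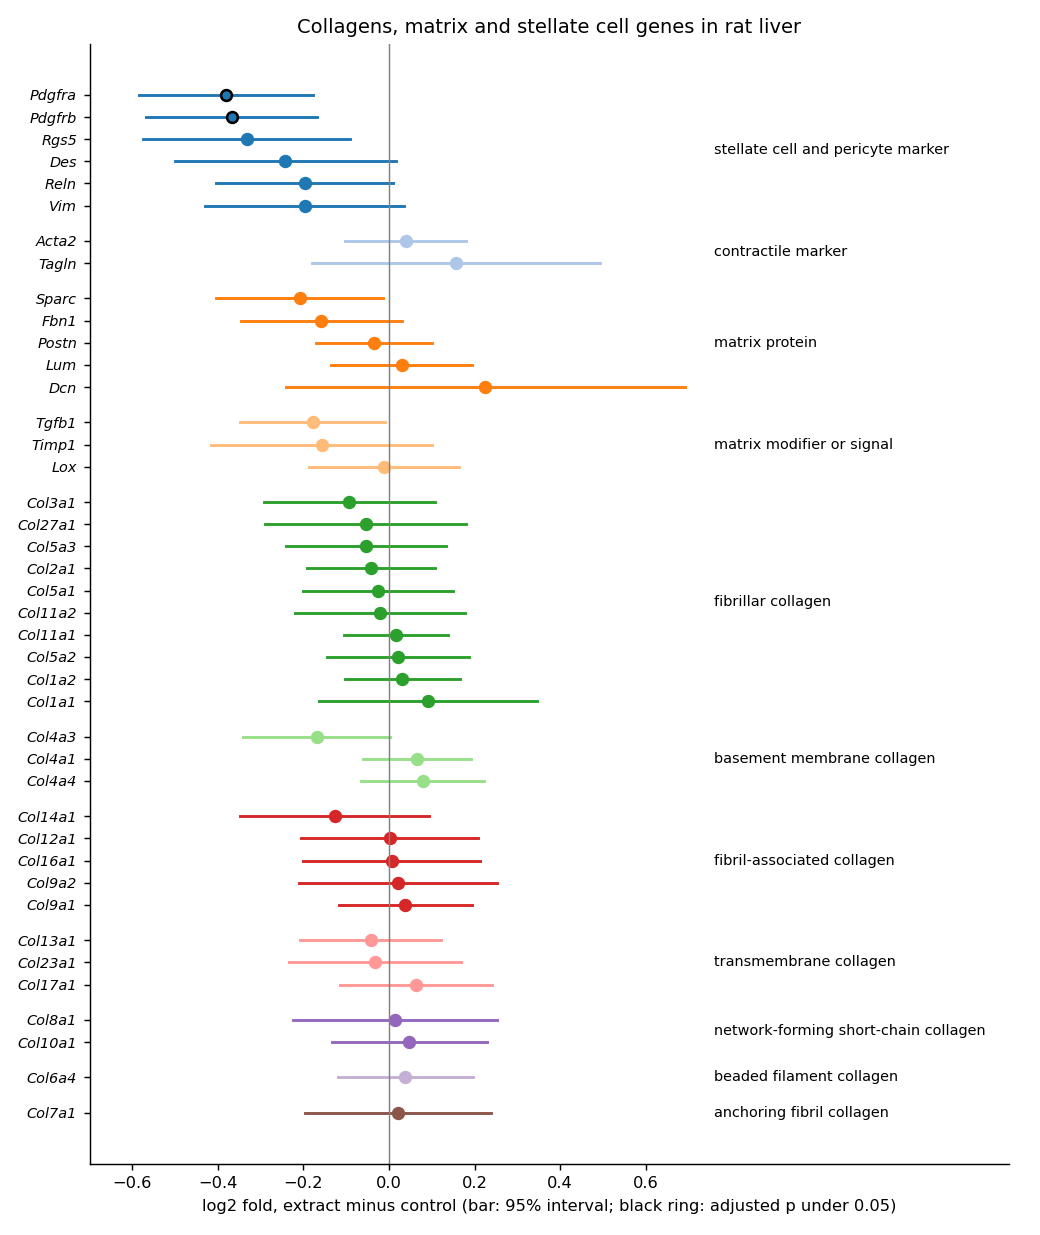
Log2 fold (extract minus control, x axis) of each of the 41 members (y axis), grouped by role, with the 95% interval from limma as a bar (n = 7 rats per group). The 6 stellate cell and pericyte markers all lie left of 0, with black rings on Pdgfra and Pdgfrb, which passed an adjusted p of 0.05, while the 25 collagens lie between -0.17 and 0.09.

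Pdgfra encodes the PDGF receptor alpha, carried by stellate cells and fibroblasts. Its log2 level ran from 6.93 over a median of 7.05 to 7.28 in extract livers, and from 7.11 over a median of 7.56 to 7.74 in control livers. The groups overlapped, with 5 of 7 extract rats below every control rat. The means were 7.06 ± 0.13 with the extract and 7.44 ± 0.24 in controls (SD, n = 7 each). The log2 fold was -0.38 ± 0.10 (SE), or 1.30-fold lower (limma adjusted p = 0.037). The call was near the threshold. Without extract rat 1, 2, 3 or 5 or control rat 1, 2, 6 or 7 it ended (limma adjusted p 0.052 to 0.088). Variances estimated separately by group and gene ended it too (adjusted p = 0.124). So did repeated quantile normalization, median centring, every probe in the fit and dropping the 2 arrays of lowest weight. The fold was negative in every one of these fits.

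Pdgfra and Rgs5 are among the 3 members of smallest p, and their promoters are shown as the 250 bases before the start site that RefSeq's table for the GRCr8 build gives, 5′ to 3′ on the gene's own strand. Pdgfra is read at chr14:33408517-33408766 (minus strand) and Rgs5 at chr13:84380827-84381076 (plus strand), with motif matches in capitals.
Pdgfra: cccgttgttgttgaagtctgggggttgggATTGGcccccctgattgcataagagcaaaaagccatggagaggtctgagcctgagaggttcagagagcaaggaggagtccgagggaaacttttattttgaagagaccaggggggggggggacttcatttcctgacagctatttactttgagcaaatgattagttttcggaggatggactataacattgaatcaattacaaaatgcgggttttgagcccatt
Rgs5: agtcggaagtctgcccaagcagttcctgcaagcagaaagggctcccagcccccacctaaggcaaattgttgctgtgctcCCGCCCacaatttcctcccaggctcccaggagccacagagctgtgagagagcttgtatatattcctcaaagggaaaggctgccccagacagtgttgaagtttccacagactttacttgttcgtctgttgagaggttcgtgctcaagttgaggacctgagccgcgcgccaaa
The motifs searched, on both strands, were the TATA box as TATAAA, the CCAAT box as CCAAT, the Sp1 box as GGGCGG and the core of the antioxidant response element, which the electrophile sensor NRF2 binds, as TGACNNNGC. The Pdgfra window held 1 match, to the CCAAT box on the opposite strand, a motif found in 34% of 33469 promoters of the same length. The Rgs5 window held 1 match, to the Sp1 box on the opposite strand, found in 30.5% of all promoters. Over the 32 members with a promoter in the table, 2 (Timp1 and Col7a1) held the antioxidant response element core, against 10.1% of all promoters, 6 the TATA box, against 12.9%, 16 the Sp1 box and 10 the CCAAT box.

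Pdgfrb encodes the PDGF receptor beta, a defining receptor of liver stellate cells. Its log2 level ran from 7.07 over a median of 7.27 to 7.44 in extract livers, and from 7.23 over a median of 7.67 to 7.92 in control livers. Control rat 1 stood lowest of the controls at 7.23, within the extract range, and the other 6 control rats all lay above the highest extract rat. The means were 7.27 ± 0.14 with the extract and 7.63 ± 0.22 in controls (SD, n = 7 each). The log2 fold was -0.37 ± 0.09 (SE), or 1.29-fold lower (limma adjusted p = 0.042). Without control rat 1 the log2 fold was -0.44 (adjusted p = 0.00431); the call was held without extract rat 6 or control rat 4 too, and leaving out any of the remaining 11 rats ended it (adjusted p from 0.051 to 0.087). Separate variances by group and gene ended it too (adjusted p = 0.116), and so did the rat number as a replicate block (adjusted p = 0.061). Median centring, every probe in the fit and an intensity trend with robust variance ended it as well.

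Rgs5, a regulator of G protein signalling used as a pericyte marker, ran from 7.21 over a median of 7.42 to 7.86 in extract livers, and from 7.48 over a median of 7.79 to 8.12 in control livers. Of the 7 extract rats, 6 lay below every control rat, and extract rat 7 stood apart at 7.86. The log2 fold was -0.33 ± 0.11 (SE) and did not pass (limma adjusted p = 0.150), though it did without extract rat 7 (log2 fold -0.41, adjusted p = 0.045). Reln, the secreted glycoprotein reelin that marks stellate cells in liver, ran from 7.55 over a median of 7.85 to 8.19 with the extract, and from 7.86 over a median of 8.0 to 8.24 in controls. The log2 fold was -0.20 ± 0.10 (SE; limma adjusted p = 0.365), with 4 of 7 extract rats below every control.

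Des encodes desmin, the intermediate filament of rodent stellate cells and of muscle. Its log2 level ran from 5.15 over a median of 5.52 to 5.92 in extract livers, and from 5.47 over a median of 5.72 to 6.33 in control livers. The groups overlapped widely, and the highest value was that of control rat 1. The log2 fold was -0.24 ± 0.12 (SE; limma adjusted p = 0.379). Vim, vimentin, the intermediate filament of mesenchymal cells, had a log2 fold of -0.20 ± 0.11 (SE, limma adjusted p = 0.437). All 6 members grouped as stellate cell and pericyte markers thus had a negative fold, with a median of -0.29, of which 2 passed and 4 did not. The longer list of stellate cell markers, with 11 measured genes, was less uniform. On it 8 had a negative fold (median -0.22), 1 passed, and Dcn, Col1a1 and Col1a2 had positive folds.

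The contractile markers Acta2 and Tagln had positive folds, and 0 of them passed. Acta2, the smooth muscle actin that activated stellate cells take up, ran from 8.11 over a median of 8.16 to 8.27 in extract livers, and from 7.95 over a median of 8.16 to 8.34 in control livers. All 7 extract rats lay inside the control range. The log2 fold was 0.04 with a 95% interval from -0.10 to 0.18 (limma adjusted p = 0.871). Tagln, transgelin, an actin-binding protein of smooth muscle, varied far more between rats, from 6.01 over a median of 6.67 to 7.03 with the extract and from 5.98 over a median of 6.55 to 7.08 in controls, and its log2 fold of 0.16 had an interval from -0.18 to 0.49 (limma adjusted p = 0.734).

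**Figure D2:**
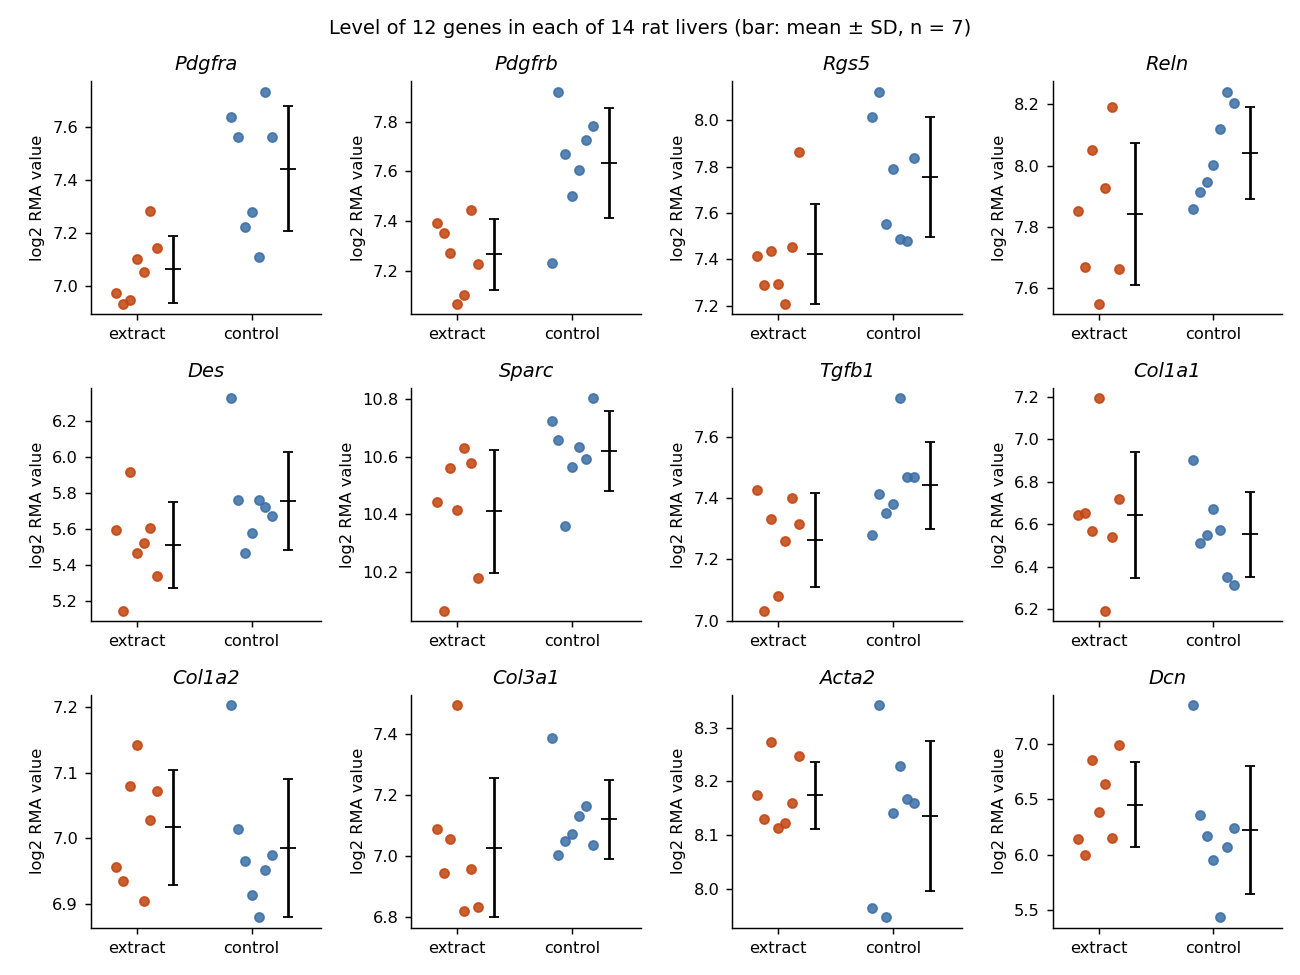
Log2 RMA value (y axis) of 12 members in each of 7 extract and 7 control rats (points), with the mean and SD beside them; each panel has its own y range. Pdgfra, Pdgfrb and Rgs5 are lower in most extract rats, whereas the points of Col1a1, Col1a2, Acta2 and Dcn overlap between the groups.

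Among the 5 matrix proteins that are not collagens, 0 passed. Sparc, a collagen-binding glycoprotein of matrix-making and endothelial cells, ran from 10.07 over a median of 10.44 to 10.63 with the extract, and from 10.36 over a median of 10.63 to 10.80 in controls. Only 2 extract rats lay below every control, and the log2 fold was -0.21 ± 0.09 (SE; unadjusted p = 0.037 in limma, adjusted p = 0.293). Fbn1, fibrillin of the elastic microfibril, had a log2 fold of -0.16 (limma adjusted p = 0.440). Dcn, decorin, a small proteoglycan that binds collagen fibrils, was the most variable member, ahead of 99.4% of all genes in its spread within groups. It ran from 6.00 to 6.99 in extract livers and from 5.44 to 7.35 in control livers, with a log2 fold of 0.22 and an interval from -0.24 to 0.69 (limma adjusted p = 0.718). Lum, the related proteoglycan lumican, and Postn, periostin, had log2 folds of 0.03 and -0.03 and group means below the median probe (2.88 and 3.28 with the extract, against 2.85 and 3.31 in controls).

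The 3 modifiers and signals all had a negative fold and 0 passed. Tgfb1, transforming growth factor beta 1, a cytokine that drives collagen synthesis in stellate cells, ran from 7.03 over a median of 7.32 to 7.43 with the extract, and from 7.28 over a median of 7.41 to 7.73 in controls. Of the extract rats 3 lay below every control rat, and the log2 fold was -0.18 ± 0.08 (SE; unadjusted p = 0.041 in limma, adjusted p = 0.307). Timp1, an inhibitor of matrix metalloproteinases, had a log2 fold of -0.16 (limma adjusted p = 0.621). Lox, the lysyl oxidase that crosslinks collagen, had a log2 fold of -0.01 (limma adjusted p = 0.974), with means of 4.55 and 4.56 that lay below the median probe.

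No collagen gene passed: limma called 0 of 25, and 0 had an unadjusted p under 0.05. Limma called 1.15% of all genes lower and 2% higher, and 0 calls among 25 genes do not set the collagens apart from that. The shares of all genes at an unadjusted p under 0.05 were 7.4% lower and 7.45% higher. The log2 folds ran from -0.17 to 0.09 with a median of 0.01, 10 negative and 15 positive. For all 25 the 95% interval of the log2 fold lay within 0.5 of 0, as it did for 91% of all genes and for 11 of the 16 other members. For all 25 the lower end of the interval also lay above -0.37, the fold of Pdgfrb, a bound met by 12516 of all 14506 genes. Of the 25, only Col1a1, Col1a2, Col3a1 and Col14a1 were kept by the filters on dim genes. RMA compresses folds near background, so for a dim collagen the interval may bound a compressed fold. Calls of the collagens stayed on the same side of the threshold under every setting and left-out rat.

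The 10 fibrillar collagens had a median log2 fold of -0.02, with 6 negative and 4 positive. Col1a1, the main chain of type I collagen, ran from 6.19 over a median of 6.65 to 7.19 in extract livers, and from 6.31 over a median of 6.55 to 6.90 in control livers. The extract range enclosed the control range, and the log2 fold was 0.09 with an interval from -0.16 to 0.35 (limma adjusted p = 0.811). Col1a2, its partner chain, ran from 6.90 over a median of 7.03 to 7.14 with the extract, and from 6.88 over a median of 6.97 to 7.20 in controls, so the control range enclosed the extract range (log2 fold 0.03, interval from -0.10 to 0.16). Col3a1, the type III chain that forms fibrils with type I, ran from 6.82 over a median of 6.96 to 7.49 with the extract, and from 7.00 over a median of 7.07 to 7.39 in controls. In Col3a1 4 extract rats lay below every control and extract rat 4 above every control (log2 fold -0.09, limma adjusted p = 0.735). Col5a1, a chain of the type V collagen found within type I fibrils, ran from 5.56 over a median of 5.98 to 6.10 with the extract, and from 5.73 over a median of 5.92 to 6.05 in controls. Col5a2, its partner, ran from 4.79 over a median of 4.96 to 5.26 with the extract, and from 4.81 over a median of 4.94 to 5.18 in controls. The extract range enclosed the control range in both, and the log2 folds were -0.03 and 0.02. Col5a3 and Col27a1 each had a fold of -0.05. The chains best known from cartilage, Col2a1, Col11a1 and Col11a2, had folds of -0.04, 0.02 and -0.02.

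Of the 3 type IV chains measured, Col4a3 had the smallest p of all collagens. It ran from 4.91 over a median of 5.11 to 5.35 with the extract, and from 5.14 over a median of 5.30 to 5.54 in controls, with 4 extract rats below every control (log2 fold -0.17, limma adjusted p = 0.346). Col4a4, which joins Col4a3 in the basement membrane of the kidney filter, had a log2 fold of 0.08, and Col4a1, a chain of most basement membranes, of 0.07 (limma adjusted p = 0.668 and 0.686). The means of Col4a1 were 5.75 ± 0.07 with the extract and 5.68 ± 0.09 in controls (SD, n = 7 each), among the tightest 3.24% of all genes by spread within groups.

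Among the 5 fibril-associated collagens, Col14a1 stood furthest from 0, from 6.78 over a median of 7.08 to 7.23 with the extract, and from 6.95 over a median of 7.15 to 7.60 in controls (log2 fold -0.13, limma adjusted p = 0.652). Only 1 extract rat lay below every control. Col12a1, Col16a1, Col9a1 and Col9a2 had folds between 0.00 and 0.04. Of the transmembrane collagens, Col17a1, an anchor of epithelial cells, ran from 4.59 over a median of 4.72 to 4.99 with the extract, and from 4.39 over a median of 4.70 to 4.94 in controls (log2 fold 0.06). Col13a1 and Col23a1 had folds of -0.04 and -0.03.

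Of the short-chain collagens, Col10a1, of growth plate cartilage, ran from 4.30 over a median of 4.38 to 4.84 with the extract, and from 4.17 over a median of 4.43 to 4.57 in controls (log2 fold 0.05). Col8a1, found in vessel walls, had a fold of 0.01. Col6a4, the only type VI chain measured here, had 3 probes, and the brightest ran from 4.33 over a median of 4.61 to 4.71 with the extract, and from 4.33 over a median of 4.52 to 4.63 in controls (log2 fold 0.04). Col7a1, of the anchoring fibrils of skin, ran from 4.82 over a median of 4.99 to 5.56 with the extract, and from 4.69 over a median of 5.09 to 5.26 in controls (log2 fold 0.02). In each of these the groups overlapped, and in Col7a1 the highest value was that of extract rat 4.

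After each group's mean was removed, the correlation between pairs of the 10 fibrillar chains over 14 rats had a median of 0.617 (45 pairs, 0.0923 to 0.881), against 0.227 for the 6 stellate cell and pericyte markers and 0.0984 over all 820 pairs of members. These values share the arrays. Of 8 pairs of partner genes chosen for a test, Col4a1 with Col4a2 and Col6a1 with Col6a2 were not analysed here, and Pdgfra with Pdgfrb and Pdgfrb with Rgs5 were added after the values were seen, so 8 pairs were tested and adjusted together. Col1a1 and Col1a2 had Pearson's r = 0.652 (permutation p = 0.0104, adjusted p = 0.042) and Spearman's rho = 0.319 (permutation p = 0.287, adjusted p = 0.738). Col1a1 and Col3a1 had r = 0.789 (permutation p = 0.00562, adjusted p = 0.042) and rho = 0.468 (permutation p = 0.108, adjusted p = 0.433). Without extract rats 4 and 5, the rats farthest from the median of Col1a1, r was 0.484 and 0.475. Leaving out the extremes of Col1a1 narrows its range, so this cannot tell whether the relations rest on those rats. Neither relation passed after each array was centred on its median (r = 0.503 and 0.743, permutation adjusted p = 0.214 and 0.0908). Extract rat 4 and control rat 1, the arrays of lowest weight, were the highest rats of their groups for Col1a1 and Col3a1. By r with Col1a1, Col3a1 stood at place 123 and Col1a2 at place 583 of 14505 genes.

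The other pairs did not pass. Col5a1 and Col5a2 had r = 0.258 and rho = 0.165 (permutation p = 0.424 and 0.597, adjusted p = 0.565 and 0.796). Col1a1 and Sparc had r = -0.283 and rho = -0.543 (permutation p = 0.402 and 0.0592, adjusted p = 0.565 and 0.433). Acta2 and Tagln had r = 0.262 and rho = 0.222 (permutation p = 0.398 and 0.461, adjusted p = 0.565 and 0.738). Among the receptors and markers, Pdgfrb and Des had r = -0.380 and rho = -0.0462 (permutation p = 0.209 and 0.883, adjusted p = 0.557 and 0.883). Pdgfra and Pdgfrb had r = 0.0702 and rho = 0.257 (permutation p = 0.851 and 0.415, adjusted p = 0.896 and 0.738), and Pdgfrb and Rgs5 had r = 0.0433 and rho = 0.0813 (permutation p = 0.896 and 0.799, adjusted p = 0.896 and 0.883). In these pairs of stellate cell genes no joint variation within the diets was detectable over 14 rats. The other pairs of stellate cell and pericyte markers were not tested. Without the 2 rats farthest from the median of the first gene, r was -0.116 for Col5a1 and Col5a2, -0.198 for Col1a1 and Sparc, 0.181 for Acta2 and Tagln, 0.0551 for Pdgfrb and Des, -0.0206 for Pdgfra and Pdgfrb and 0.1 for Pdgfrb and Rgs5.

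**Figure D3:**
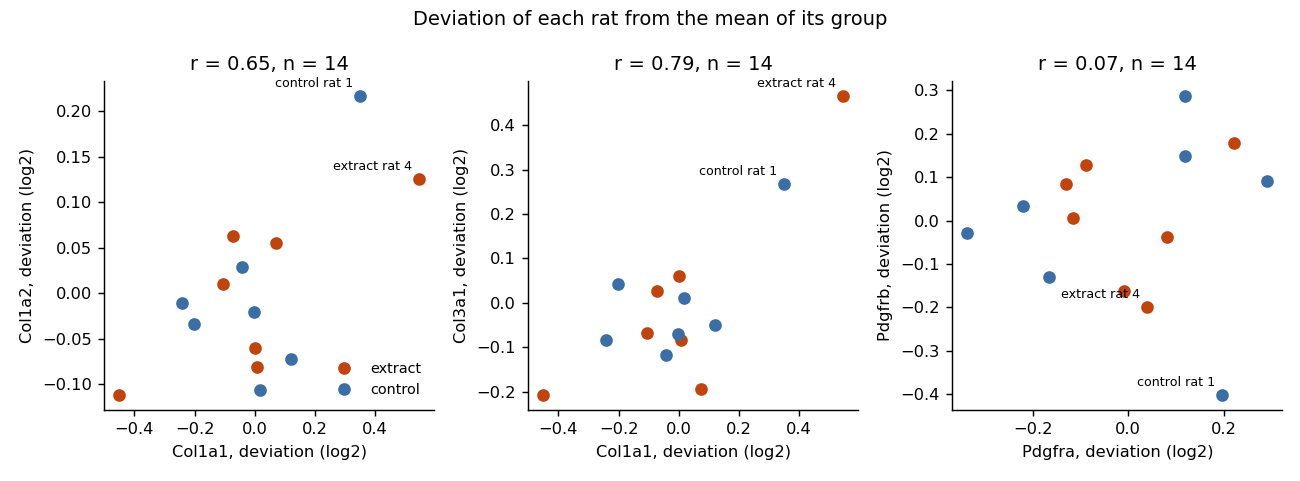
Deviation of each rat from the mean of its group (log2, both axes) for 3 pairs of members, 7 extract and 7 control rats. Col1a1 rises with Col1a2 (r = 0.652) and Col3a1 (r = 0.789), with extract rat 4 and control rat 1 at the upper right, while Pdgfra and Pdgfrb show no such slope (r = 0.0702).

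Stellate cell genes outside the set were described from a further list. Of 20 measured genes on a list of other stellate cell genes, 2 fell, 0 rose and 18 did not pass, where 1.15% of all genes were called lower. A negative fold was found in 18 of the 20, against 50.3% of all genes, with a median log2 fold of -0.25. Lower at an unadjusted p under 0.05 were 13 of the 20, against 7.4% of all genes. That count was 11 to 15 when any 1 rat was left out and 12 without extract rat 4 and control rat 1 together. The list was written with results of these data known, so its direction is not independent evidence. Vipr1, a receptor for vasoactive intestinal peptide, ran from 7.78 over a median of 8.03 to 8.53 in extract livers, and from 8.49 over a median of 8.72 to 8.93 in control livers. It fell by 0.59 on the log2 scale, or 1.51-fold, with 5 of 7 extract rats below every control (limma adjusted p = 0.00754), and lost its call with separate variances by group (adjusted p = 0.075). Colec11, a soluble collectin, ran from 7.79 over a median of 8.06 to 8.17 with the extract, and from 8.20 over a median of 8.35 to 8.55 in controls. All 7 extract rats lay below every control rat (log2 fold -0.36, limma adjusted p = 0.012), and this call was held under every setting and left-out rat.

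Further members of that list are named after their values were seen. Lrat, the enzyme that esterifies retinol for storage, averaged 8.48 with the extract and 8.96 in controls (log2 fold -0.48, limma adjusted p = 0.059). Lhx2 and Hand2, transcription factors of stellate cells that with Lrat are also on the marker list, had log2 folds of -0.31 and -0.22 (limma adjusted p = 0.063 and 0.193), and Hgf, hepatocyte growth factor, of -0.37 (limma adjusted p = 0.157). Against them Nes, nestin, and Wt1 had positive folds of 0.10 and 0.04, on means below the median probe.

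Markers of other liver cells were read in the same arrays. For scale, limma called 1.15% of all genes lower and 2% higher, and 50.3% of all genes had a negative fold. All 12 Kupffer cell and macrophage markers had a negative fold (median -0.28). Of them 2 passed (Marco and Vsig4, log2 folds -0.73 and -0.51, limma adjusted p = 0.00586 and 0.024). At an unadjusted p under 0.05, 10 of the 12 were lower, against 7.4% of all genes. By the same threshold 5 of 11 stellate cell, 2 of 7 endothelial and 0 of 10 hepatocyte markers were lower. So were 1 of 6 bile duct, 1 of 9 lymphocyte and 0 of 4 erythroid markers. The summed level of the 12 (log2 of the summed linear values) ran from 12.33 to 12.70 with the extract and from 12.71 to 13.08 in controls. Such a sum is weighted towards the genes with the brightest probes. All 7 endothelial markers measured had a negative fold (median -0.16) and 0 passed, with summed levels of 11.80 to 12.45 and 12.26 to 12.44 (extract and control). Of 10 hepatocyte markers 0 passed and the median was -0.03, with summed levels of 16.21 to 16.29 and 16.23 to 16.37 (extract and control). The summed level of the 11 measured stellate cell markers ran from 10.48 to 10.84 with the extract and from 10.85 to 11.08 in controls. By the mean of their log2 levels the groups overlapped, with 6 of 7 extract rats below every control. Of the 11, 8 had a negative fold (median -0.22) and 1 passed (Pdgfrb), while Dcn, Col1a1 and Col1a2 had positive folds. No marker of these 4 lists lay below the median probe in both groups. Of 6 bile duct markers 1 fell (Prom1, log2 fold -2.22, limma adjusted p = 6.16e-06) and 5 did not pass, with a median of 0.14 and 2 negative folds. Among the 4 with a positive fold, Krt7 had 0.23 (limma unadjusted p = 0.013, adjusted p = 0.176) and Epcam 0.26. The summed level of all 6, Prom1 included, ran from 7.56 to 8.30 with the extract and from 8.62 to 9.28 in controls, and 4 lay below the median probe in both groups. Of 9 lymphocyte and 4 erythroid markers 0 passed (medians -0.06 and -0.09), with summed levels of 9.58 to 9.92 and 9.86 to 9.94 (lymphocyte, extract and control) and of 11.07 to 12.01 and 11.59 to 12.06 (erythroid, extract and control). The part of the other cells in the lower stellate cell genes was not tested.

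**Figure D4:**
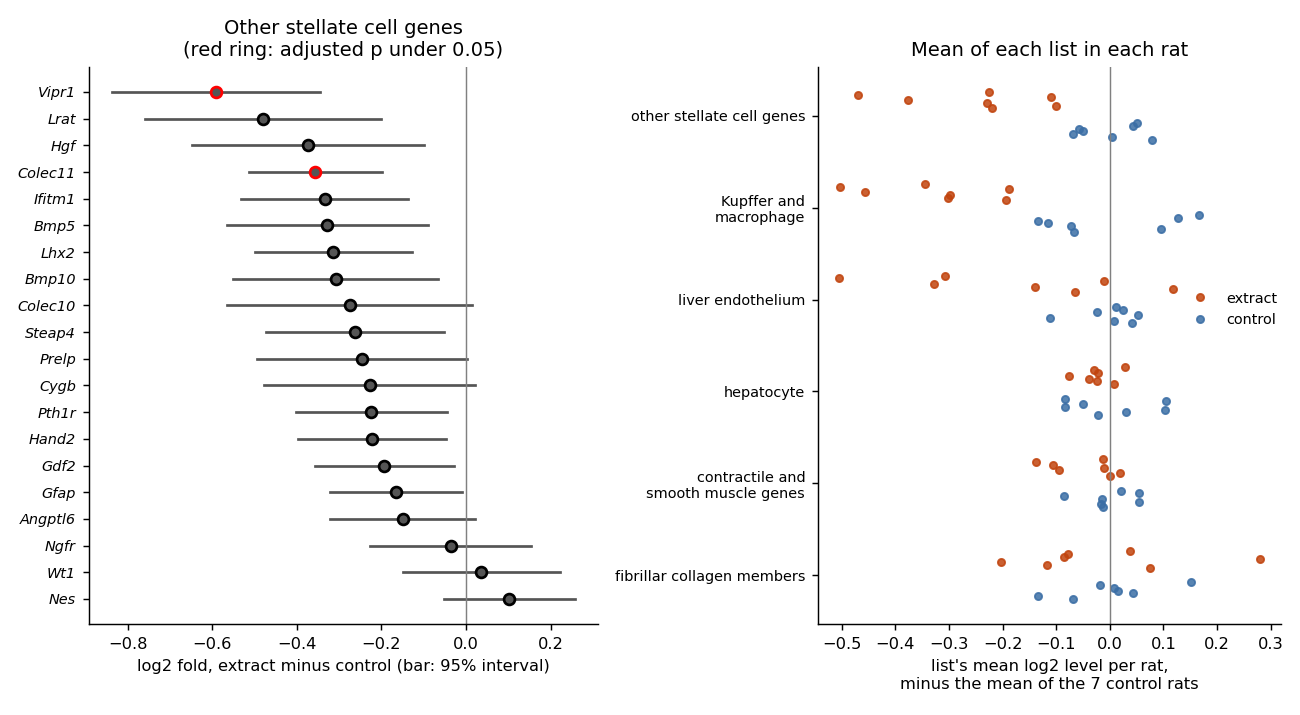
Left, log2 fold (extract minus control, bars 95% interval) of 20 further stellate cell genes, with red rings on Vipr1 and Colec11, which passed an adjusted p of 0.05. Right, the mean log2 level of each list in each rat minus the mean of the 7 control rats: the 7 extract rats lie below all controls for the other stellate cell genes and the Kupffer cell markers, and overlap with them for endothelial, hepatocyte, contractile and fibrillar collagen genes.

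In the machinery around the collagens, calls were limited to single genes, where over all genes 2% were called higher and 1.15% lower. Of 23 genes of collagen processing and crosslinking 0 passed (median 0.02): the smallest p was that of Crtap, a subunit of the collagen prolyl 3-hydroxylase complex, which averaged 7.36 ± 0.13 with the extract and 7.07 ± 0.18 in controls (SD, n = 7 each; log2 fold 0.29, limma adjusted p = 0.073). Of 30 matrix proteases and inhibitors 1 rose and 1 fell (median -0.06). Timp2, an inhibitor of metalloproteinases, fell by 0.28 on the log2 scale, with all 7 extract rats (7.34 to 7.56) below all 7 control rats (7.58 to 7.97; limma adjusted p = 0.039). Its call was lost without any 1 of 10 rats (adjusted p from 0.050 to 0.092). Of 12 other settings 6 ended it, among them repeated quantile normalization, median centring and separate variances by group. Mmp12, the macrophage elastase, rose by 0.52 (limma adjusted p = 0.015), on means of 4.53 with the extract and 4.01 in controls, both below the median probe. Its call was lost with separate variances by group (adjusted p = 0.103).

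Of 24 genes of TGF-beta and PDGF signalling 1 rose and 1 fell (median -0.08). Pdgfa, a PDGF chain that binds PDGF receptor alpha, ran from 6.62 over a median of 6.69 to 7.14 in extract livers, and from 6.12 over a median of 6.33 to 6.52 in control livers. All 7 extract rats lay above every control rat, so the ligand rose (log2 fold 0.41 ± 0.08 SE, limma adjusted p = 0.010), and this call was held under every setting and left-out rat. Ltbp4, a binding protein of latent TGF-beta, fell by 0.52 (limma adjusted p = 0.047), a call lost without any 1 of 12 rats (adjusted p from 0.051 to 0.101). The Ltbp4 call was also lost in 4 of 12 other settings, among them median centring and separate variances by group. Of 20 integrins and other collagen receptors 1 fell (median -0.02): Sdc1, a heparan sulfate proteoglycan, had a log2 fold of -0.36 (limma adjusted p = 0.048), lost without any 1 of 11 rats (adjusted p from 0.051 to 0.106). The Sdc1 call was also lost in 5 of 12 other settings, among them median centring and separate variances by group.

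In the 3 remaining lists limma called 0 genes. Over all genes 7.4% were lower and 7.45% higher at an unadjusted p under 0.05. Of 30 glycoproteins, proteoglycans and basement membrane genes (median -0.05; 3 lower and 2 higher at an unadjusted p under 0.05), Lama3, a laminin chain, had the smallest p (log2 fold 0.35, limma adjusted p = 0.080). Of 17 contractile and smooth muscle genes (median -0.03; 1 lower and 0 higher unadjusted), it was Smtn, smoothelin (-0.28, limma adjusted p = 0.091). Of 11 portal fibroblast and mesothelial genes (median 0.04; 1 lower and 2 higher unadjusted), it was Gpm6a, a mesothelial membrane glycoprotein (-0.36, limma adjusted p = 0.072). Over all 8 lists together 2 of 173 genes rose and 5 fell, with a median log2 fold of -0.04. Over all genes 2% were called higher and 1.15% lower, and these calls are too few to set the lists apart from that.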

How the data were processed

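Per the labels' protocols, total RNA from 14 livers was prepared with Affymetrix whole-transcript labelling. The deposited values are log2 RMA values of 29215 transcript clusters, made by the authors with RMA and Affymetrix Expression Console 1.1.2, per the submitters' processing notes. Options and genome build are not given in the sources used here. The log2 scale was read from the range, 1.95 to 14.0. The dose is that of the sample labels (0.05% of the diet); the series title gives 0.5%.

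Gene names came from the platform annotation in GEO (15310 with 1 symbol, 323 with several, 13582 with none), updated by Entrez identifier against NCBI's GRCr8 gene table (15279 matched, 0 symbols changed). No filter or further normalization was applied to the deposited values. Groups were compared with limma 3.58.1 in R 4.3.3 (lmFit, eBayes, two-sided), adjusted over all 14506 genes. Pairs used a two-sided permutation test within groups, with 100000 resamples. Python 3.11.15, pandas 2.3.3 and matplotlib 3.10.9 made tables and figures. The number of arrays limits the precision.

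In simulated data on 14506 genes for this comparison, the recovery was 71.6% for a log2 change of 0.4, 94.8% for 0.6 and 99.2% for 1, and 4.69% of the calls were false. The noise was independent between genes, which real noise is not.

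The members, lists, markers and tests were chosen with earlier results of these data known. Values over rats are given for members that passed, members with an unadjusted p under 0.05, the markers Pdgfrb, Des and Col1a1, the paired genes and the smallest p of each role; of the other lists, up to 4 that passed or the smallest p. Genes shown beyond that rule were named after their values were seen. The alternatives left out each rat in turn, blocked on the rat number, used array weights or an intensity trend, let variances differ by group, took an adjusted p of 0.1, normalized again by quantiles or by median centring, averaged a gene's probes, kept every probe, or dropped dim genes by either of 2 filters. A fit without the 2 arrays of lowest weight, 2 gene pairs, the unadjusted count of other stellate cell genes and all alternatives for genes outside the set were added after seeing the data.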

Additional observations from a re-analysis of the deposited data

Results flagged for a closer look

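For each of the 41 members and both groups (82 groups of 7 rats), the gap between the highest or lowest rat and its nearest neighbour was compared with the whole range of the group. In 8 groups 1 rat stood far from the others, and chance alone marks about 1 group in 20.

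Extract rat 4 stood apart upward in Col3a1 (7.49, next rat 7.09) and Col7a1 (5.56, next rat 5.13), and extract rat 7 in Rgs5 (7.86, next rat 7.46). Control rat 1 stood apart upward in Col1a2 (7.20, next rat 7.01), Col3a1 (7.39, next rat 7.16) and Des (6.33, next rat 5.76). Control rat 5 stood apart upward in Tgfb1 (7.73, next rat 7.47), and control rat 6 downward in Col5a3 (5.36, next rat 5.54). Extract rat 4 and control rat 1 account for 5 of the 8, and these arrays had the lowest weights.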

How the results depend on the processing

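The count of 2 members called lower is not stable: leaving out 1 rat gave 0 to 2, with 0 without extract rat 1, 2, 3 or 5 or control rat 2, 6 or 7 and 1 without extract rat 4 or control rat 1, 3 or 5. It was 1 after repeated quantile normalization, with an intensity trend, with the rat number as a replicate block and without the 2 arrays of lowest weight, and 0 after median centring, with every probe in the fit and in the unequal-variance test. Same-numbered rats deviated alike in some pairs and oppositely in others (r from -0.46 to 0.282). So few correlations cannot settle whether the number marks a pairing. The 457 genes changed, extract against control, became 694 with array weights, 227 in the unequal-variance test and 719 at an adjusted p of 0.1. The 7 calls of the other lists became 4 after median centring, with every probe and with the replicate block, 12 with array weights, 2 in the unequal-variance test and 19 at an adjusted p of 0.1. They were 4 without extract rat 2 or 5, 13 without control rat 1, and 4 to 13 over all left-out rats. The members' median log2 fold was -0.16 under both filters on dim genes, which keep fewer members and drop most collagens. Without the 2 farthest rats r moved to 0.475 for Col1a1 and Col3a1, -0.116 for Col5a1 and Col5a2, and 0.0551 for Pdgfrb and Des. The calls of Col1a1 with Col1a2 and Col3a1 were lost with Spearman's rho (0.319 and 0.468) and after median centring (r = 0.503 and 0.743, permutation adjusted p = 0.214 and 0.0908). Why these values moved was otherwise not tested. No member reversed a call in 1016 fits, but 30 of these fits moved a member across the threshold. A reversal needs a call, so this says little about members that did not pass. Among those the sign of the fold could change, as in 7 settings each for Col12a1 and Lox. Dim genes are limited by signal over background.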
